A study of Mus musculus with 9 samples.

Results

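The genes described here are 8 long noncoding RNAs of the mouse brain, Malat1, Neat1, Meg3, Rian, Mirg, Miat, Snhg11 and Peg13, picked by name from the 49315 genes of the deposited count table. All 8 were among the 18492 genes that passed the filter on low counts. RNA was extracted from whole brains of wild-type male C57BL/6J mice, selected for poly(A) tails, and sequenced, with no treatment named for either group. The young group held 5 mice labelled as 3 months of age (3 or 4 months in the study's methods) and the old group held 4 mice of 33 months. Since each library is a whole brain from 1 strain and 1 sex, all values are averages over cell types and regions, and the comparison of old with young brain is the only one the samples allow.

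Long noncoding RNAs are transcripts that are spliced and polyadenylated like messenger RNAs, or processed in other ways, but act as RNA. Malat1 resides in nuclear speckles, the compartments where splicing factors gather, and Neat1 is the scaffold on which paraspeckles assemble. Meg3, Rian and Mirg are transcribed from the maternal chromosome of the Dlk1-Dio3 imprinted region, where Rian hosts small nucleolar RNAs and Mirg hosts a large cluster of microRNAs. Miat is a neuronal RNA retained in the nucleus, Snhg11 is a host gene of small nucleolar RNAs that is expressed in neurons, and Peg13 is transcribed from the paternal chromosome inside an intron of Trappc9.

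In the GENCODE M21 annotation of GRCm38, Malat1 (chr19:5795690-5802672) and Neat1 (chr19:5824708-5845478) lie beside each other on the minus strand. Meg3 (chr12:109541001-109571726), Rian (chr12:109603940-109661716) and Mirg (chr12:109729764-109749460) follow one another on the plus strand. Miat lies at chr5:112213228-112229395 on the minus strand, Snhg11 at chr2:158375638-158386145 on the plus strand, and Peg13 at chr15:72805600-72810324 on the minus strand. The label of the group did not hold in every respect. Snhg11 carries the annotation protein_coding, Rian processed_transcript and Peg13 sense_intronic, whereas the other 5 are lincRNA. By mean level, Meg3 ranked 6, Malat1 8, Snhg11 17, Rian 167, Miat 270, Peg13 343 and Neat1 533 among the genes tested, but Mirg ranked 5156 and was not among the abundant transcripts. Location in the nucleus was not measured by these libraries.

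Stretches of Malat1 and Neat1 are shown because the ends of these RNAs bear on what poly(A) selection captures. Malat1 and the long Neat1 RNA are known to end in an A-rich tract that folds with upstream U-rich runs into a triple helix, after cleavage by RNase P, instead of in a poly(A) tail. The 100 bases that end in this tract (Malat1, chr19:5795982-5796081) and the last 100 bases of the long transcript (Neat1, chr19:5824708-5824807), both on the minus strand, share runs of 16, 13 and 11 bases, which are in capitals.
Malat1: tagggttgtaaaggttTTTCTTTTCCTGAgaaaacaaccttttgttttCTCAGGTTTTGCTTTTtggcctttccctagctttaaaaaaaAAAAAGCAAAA
Neat1: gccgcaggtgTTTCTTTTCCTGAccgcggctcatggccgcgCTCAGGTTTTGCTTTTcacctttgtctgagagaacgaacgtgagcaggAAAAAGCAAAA
The annotated Malat1 transcript runs 292 bases further than the tract, and its last 50 bases hold the poly(A) signal AATAAA. The letters AATAAA stood in the last 50 bases of the longest transcript of 6 of the 8 genes, all but Neat1 and Miat, and of 54.5% of 18429 tested genes with a transcript sequence. The short Neat1 transcript, 3004 bases from nearly the same start as the long one of 20771 bases, ends at chr19:5842307-5842366 with this signal, in capitals.
Short Neat1: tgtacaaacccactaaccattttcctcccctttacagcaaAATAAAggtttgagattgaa
The gene counts sum both Neat1 transcripts, which could not be told apart.

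A stretch of Miat is shown for its repeats, and a few microRNAs for what Rian and Mirg carry. Miat is known for the motif TACTAAC, which resembles the branch point sequence that the splicing factor SF1 binds. The longest Miat transcript holds it 6 times on its own strand, 3 of them in the 140 bases at chr5:112217315-112217454 (minus strand, motif in capitals). As many copies occurred in 2 of the tested genes with a transcript sequence, Miat included (0.0109%), and 7.91% held at least 1 copy.
Miat: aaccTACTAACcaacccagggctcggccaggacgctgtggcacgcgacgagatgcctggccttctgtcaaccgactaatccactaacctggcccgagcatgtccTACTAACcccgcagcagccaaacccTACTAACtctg
By RefSeq entries for GRCm38.p6, 14 microRNA genes lie within Mirg, 3 within Rian and 2 within Meg3, with 35 mature microRNAs in all. Their seeds (bases 2 to 8, in capitals) were 34 different sequences, and the shared one belonged to a pair in Mirg, mmu-miR-453 (chr12:109735669-109735692) and mmu-miR-496a-5p (chr12:109739132-109739152). The other sequence shown, mmu-miR-370-3p (chr12:109618305-109618326), comes from Rian.
mmu-miR-453: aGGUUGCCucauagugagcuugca
mmu-miR-496a-5p: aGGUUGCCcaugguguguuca
mmu-miR-370-3p: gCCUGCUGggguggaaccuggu
Mature microRNAs carry no poly(A) tail and were not measured here, so the values of Mirg and Rian are those of the host transcripts.

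The libraries held 14229259 to 21150439 counts each, of which the 8 genes took from 1.17% to 1.41%. Levels are given as CPM, counts per 1000000 of the library total after TMM scaling, which corrects for depth and composition. Ribosomal RNA-like genes took from 1.52% to 4.59% of the counts, and mitochondrial genes took from 3.22% to 3.37% in young and from 2.88% to 3.23% in old brains. All 12 neuron markers were detected, with a summed level of 8621 to 9359 CPM in young and 8430 to 8975 CPM in old brains, and 4 of them fell. The summed microglia markers spanned 221 to 343 CPM in young and 327 to 354 CPM in old brains, with 1 of 9 higher in old brain. Of 8 endothelial markers 5 rose, and their summed levels did not overlap (291 to 309 CPM in young and 328 to 359 CPM in old brains). Of 5 blood markers 3 rose, with a median log2 fold change of 1.26 and sums of 86.1 to 116 CPM in young and 128 to 409 CPM in old brains. Of 9 oligodendrocyte markers 2 rose and 1 fell, and none of 9 astrocyte markers rose or fell. None of 8 cerebellum markers did either, with a median log2 fold change of -0.33. The cerebellum sums were 808 to 1106 CPM in young and 542 to 945 CPM in old brains. None of the markers of these lists was at 0.

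Of the 8 genes, Neat1 rose and Rian fell with age, and the other 6 did not pass the test (edgeR's quasi-likelihood test, adjusted p under 0.05 over all 18492 genes). Of all genes tested, 11.0% passed, 6.09% higher and 4.89% lower in old brain. The share of the 8 genes that passed was not tested against this background. Neat1 alone also had an absolute log2 fold change over 0.58, against 2.50% of all genes. The ages did not overlap for Neat1 and Rian, and 12.6% of all genes had CPM ranges that did not overlap.

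**Figure D1:**
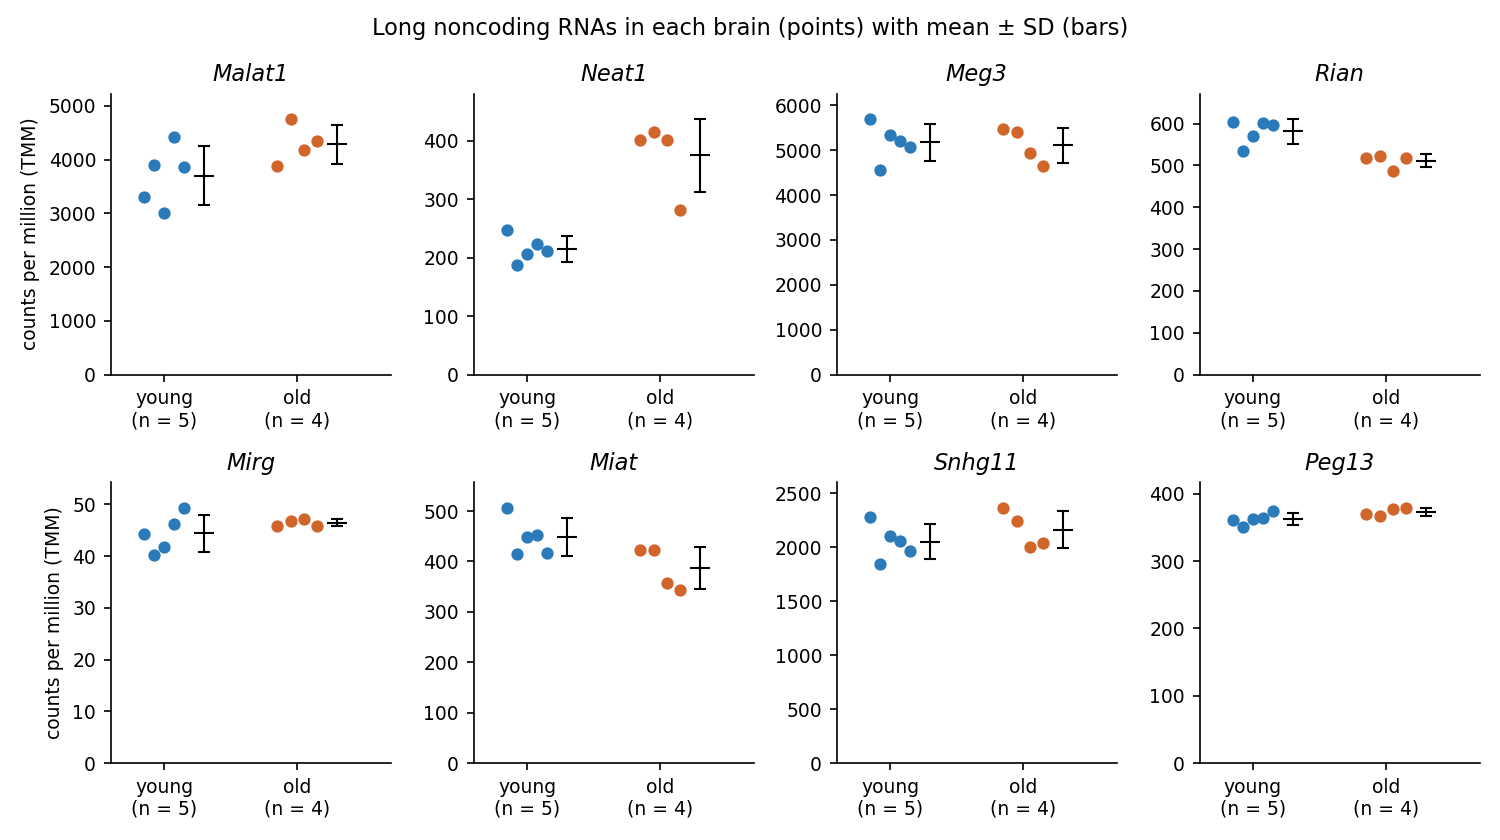
CPM after TMM scaling of the 8 long noncoding RNAs in each brain (points; young, n = 5, old, n = 4), with the mean and SD of each age (bars); all axes start at 0. The old brains lie above all young brains for Neat1 and below all young brains for Rian, and the ages overlap for the other 6.

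Neat1, the paraspeckle scaffold, was at 248, 188, 206, 223 and 211 CPM in young replicates 1 to 5 and at 401, 416, 401 and 282 CPM in old replicates 1, 3, 4 and 5. Every old brain was above every young brain, and old replicate 5 was the closest to the young ones. The latter brain also had the highest summed olfactory bulb markers (277 CPM, the other old brains 119 to 141). The mean was 215 ± 22.5 CPM (SD, n = 5) in young and 375 ± 62.3 CPM (SD, n = 4) in old brain, a 1.74-fold rise. The log2 fold change was 0.80 with a standard error of 0.13 and a 95% interval of 0.50 to 1.10 (adjusted p = 0.0079). It remained past the threshold with each mouse left out in turn, with log2 fold changes from 0.75 to 0.91. With the oligodendrocyte markers as a covariate it passed as well (edgeR, adjusted p = 0.014). The endothelial and blood markers rose as well, and their part in the rise of Neat1 was not tested. In whole brain, more cells that express Neat1 and more Neat1 RNA per cell cannot be told apart. With the mitochondrial share, the microglia, astrocyte or neuron markers as a covariate, the adjusted p was 0.33, 0.28, 0.11 and 0.56 at log2 fold changes of 0.55, 0.81, 0.76 and 0.72, and these fits called 127, 111, 763 and 12 of all genes.

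Malat1, the speckle-resident RNA and the most abundant of the group per length, did not pass the test. It was at 3305, 3896, 3014, 4417 and 3868 CPM in young replicates 1 to 5, and at 3880.2, 4753, 4175 and 4339.9 CPM in old replicates 1, 3, 4 and 5. Only old replicate 3 was above all young brains. The means were 3699.8 ± 549 CPM (SD, n = 5) and 4287 ± 364 CPM (SD, n = 4), and the log2 fold change was 0.21, with a 95% interval of -0.051 to 0.48 (edgeR, adjusted p = 0.30). The interval reaches from a value just below 0 to a rise of 0.48 on the log2 scale.

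Between mice of one age, the CPM of Malat1 was higher in libraries with a higher ribosomal RNA-like share. This relation was looked at after the values were seen. With the age means removed, log2 CPM of Malat1 and the log2 share had a Pearson r of 0.95 (exact permutation of mice within age, p = 0.0014, adjusted p = 0.013 over 9 relations) and a Spearman rho of 0.92 (exact p = 0.0049, adjusted p = 0.044) over 9 mice. Without the 2 mice farthest from the median share, r was 0.90. For the other 7 RNAs r with this share lay between -0.50 and 0.48, and the lowest adjusted p was 0.61 (exact permutation), as for Malat1 with Meg3 (r = -0.36). Both measures are shares of one library. On log2(TPM + 1) the relation turned to r = -0.35 (adjusted p = 0.51, exact permutation). With a mouse left out r stayed between 0.92 and 0.96, but 7 of 9 adjusted p were at 0.05 or above. With the ribosomal RNA-like share as a covariate the log2 fold change was 0.13 for Malat1 (adjusted p = 0.064) and 0.81 for Neat1 (adjusted p = 0.020).

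**Figure D2:**
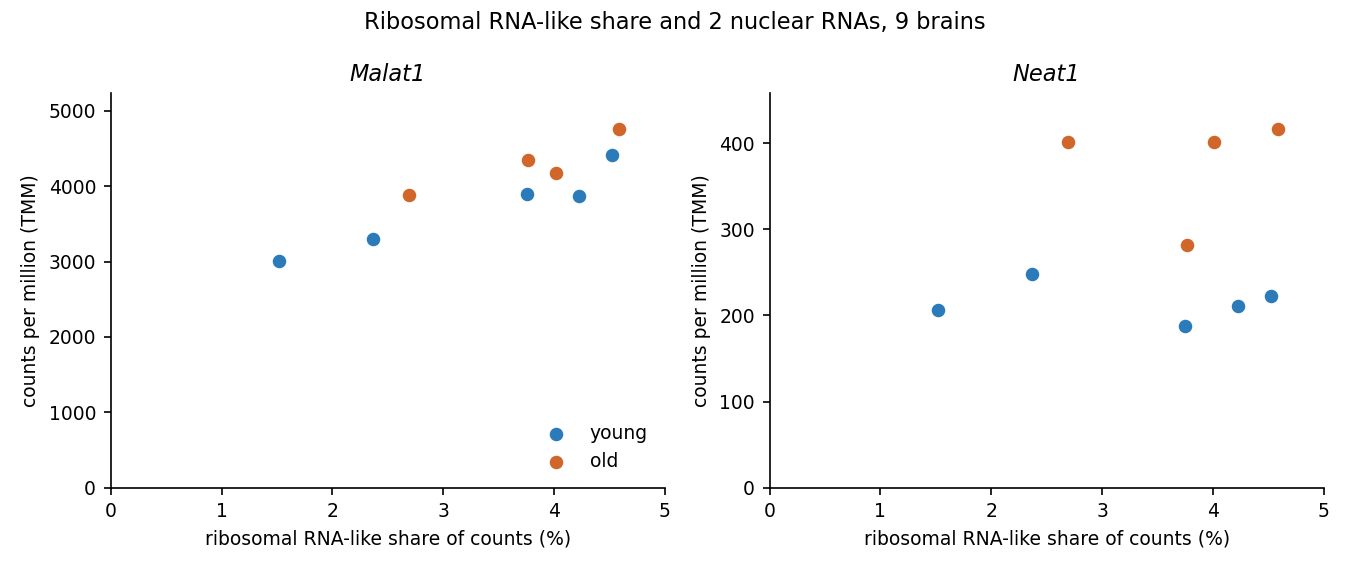
CPM of Malat1 (left) and Neat1 (right) against the share of counts on ribosomal RNA-like genes in percent, 1 point per brain, young in blue and old in orange. Malat1 is higher where the share is higher at either age (r = 0.95 with the age means removed, but -0.35 on the log2(TPM + 1) scale). For Neat1 all old brains lie above all young brains (r = -0.069), and no old brain has a share below 2.69%.

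The ratio of Neat1 to Malat1 counts in a library does not depend on scaling. It was 0.0751, 0.0481, 0.0684, 0.0505 and 0.0545 in young replicates 1 to 5 and 0.103, 0.0875, 0.0961 and 0.0650 in old replicates 1, 3, 4 and 5. Old replicate 5 lay within the young range and the other old brains above it. The ratio was 1.48-fold higher in old brain (two-sided exact permutation test, p = 0.040, adjusted p = 0.063 over 4 ratios), which missed the threshold. Without old replicate 5 the adjusted p was 0.048, and with any other mouse left out it was from 0.076 to 0.12 (exact permutation).

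Of the protein-coding genes beside the Malat1 and Neat1 pair, the nearest 2 on the Neat1 side rose. Frmd8, which lies 4224 bases from Neat1, rose from 28.2 ± 1.73 CPM to 35.6 ± 1.14 CPM (log2 fold change 0.34, edgeR, adjusted p = 0.00082). Slc25a45, 32330 bases away, rose from 3.33 ± 0.33 to 5.03 ± 0.43 CPM (0.59, adjusted p = 0.0065). On the other side, Ltbp3 did not pass (-0.087, adjusted p = 0.29). Among the 18 tested neighbours of all 8 genes, Frmd8 and Slc25a45 were the only ones that passed (11.1%, beside 11.0% of all genes). None fell by edgeR, with 1 lower at an unadjusted p under 0.05, which 4712 of all 18492 genes met in either direction. DESeq2 also called 2 higher and 0 lower. Dio3, beside the Dlk1-Dio3 RNAs, was called lower without the filter on low counts, with the replicate number as a block and on the log2(TPM + 1) scale. On that last scale neither rise passed (adjusted p = 0.64 for Frmd8 and 0.36 for Slc25a45). With the neuron or microglia markers as a covariate neither rise passed (adjusted p = 0.39 and 0.066 for Frmd8, 0.54 and 0.34 for Slc25a45), and with the mitochondrial share or the astrocyte markers Slc25a45 did not (0.23 and 0.12).

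**Figure D3:**
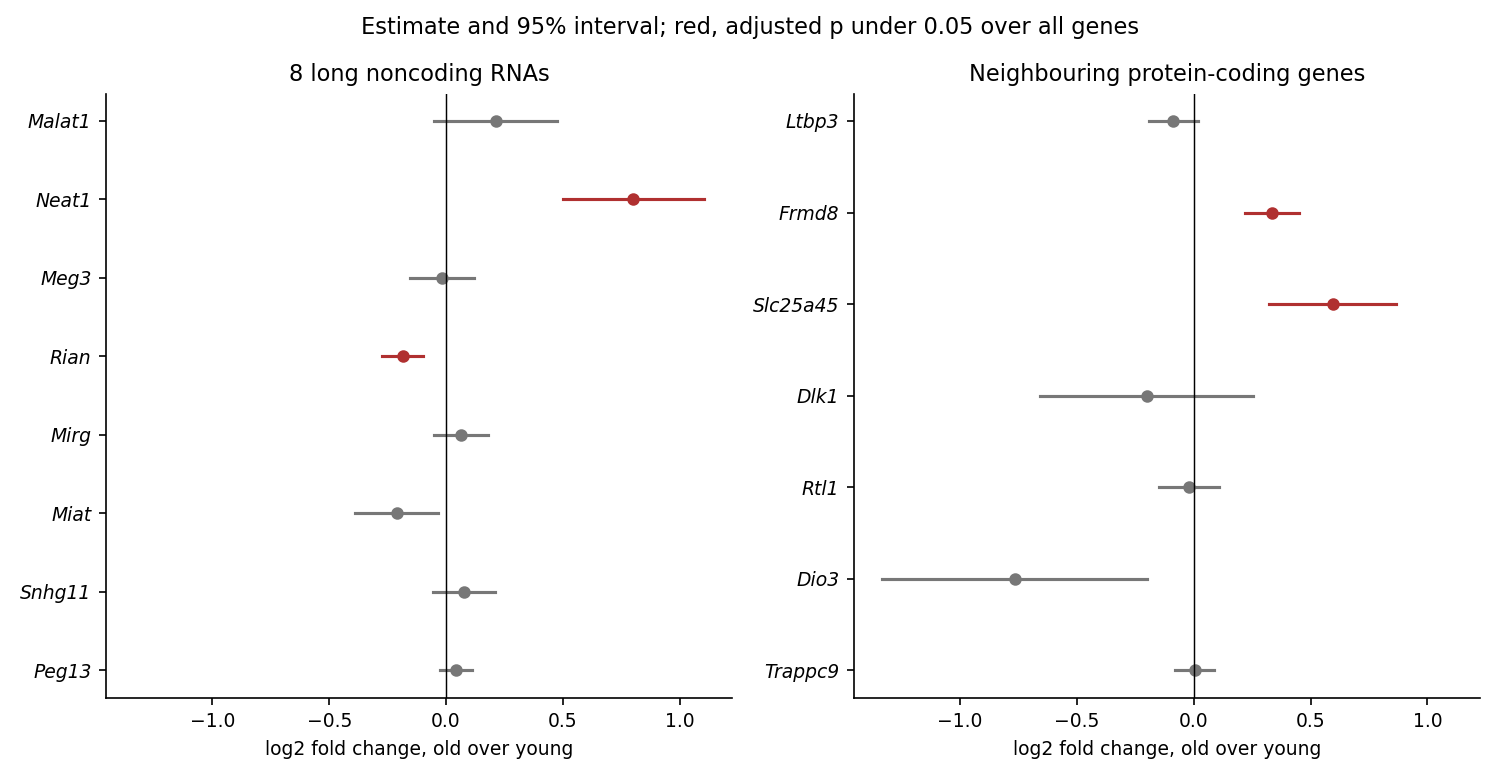
Log2 fold change of old over young brain (points) with its 95% interval (lines) for the 8 long noncoding RNAs (left) and for those neighbouring protein-coding genes that are described by name (right); red marks an adjusted p under 0.05 over all genes. Neat1 (0.80), Frmd8 (0.34) and Slc25a45 (0.59) lie above 0 and Rian (-0.19) below it.

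In the Dlk1-Dio3 region, Rian fell while Meg3 and Mirg did not pass the test. Rian was at 604, 534, 571, 600.5 and 598 CPM in young replicates 1 to 5 and at 518, 522, 488 and 518 CPM in old replicates 1, 3, 4 and 5. All old brains were below all young brains, with young replicate 2 the closest. The means were 582 ± 29.3 CPM (SD, n = 5) and 511 ± 15.8 CPM (SD, n = 4), and the log2 fold change was -0.19 with a standard error of 0.041 (95% interval -0.27 to -0.099, edgeR, adjusted p = 0.0073). It passed with each mouse left out in turn, and with the oligodendrocyte markers or the ribosomal RNA-like share as a covariate (adjusted p = 0.0060 and 0.013). It did not pass with the mitochondrial share, the microglia, neuron or astrocyte markers as covariates (adjusted p = 0.35, 0.17, 0.85 and 0.053, at log2 fold changes of -0.16, -0.23, -0.068 and -0.21). The latter fits called 127, 111, 12 and 763 of all genes, beside 2031 by the planned test. On the log2(TPM + 1) scale the log2 fold change of Rian was -0.35 (limma, adjusted p = 0.31). The median of all genes moved by -0.14 on this scale, and relative to that median Rian was at -0.20, which was not tested.

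Meg3, the first gene of this maternal row, was at 5691, 4554, 5344, 5203 and 5065 CPM in young replicates 1 to 5 and at 5464, 5401, 4941 and 4636 CPM in old replicates 1, 3, 4 and 5. All old values lay within the young range. The means were 5171 ± 416 CPM (SD, n = 5) and 5110.3 ± 393 CPM (SD, n = 4), with a log2 fold change of -0.017 (95% interval -0.15 to 0.12, adjusted p = 0.90). The interval holds no change beyond -0.15 or 0.12 on the log2 scale.

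Mirg, the microRNA host, was at 44.3, 40.1, 41.8, 46.3 and 49.4 CPM in young replicates 1 to 5 and at 45.8, 46.8, 47.2 and 45.8 CPM in old replicates 1, 3, 4 and 5. The old values lay within the young range and spread less, with a coefficient of variation of 1.55% beside 8.23%. At counts of 608 to 958 per library, the old spread is below what counting error alone would give. The difference in spread was not tested. The log2 fold change was 0.065 (95% interval -0.052 to 0.18, edgeR, adjusted p = 0.50).

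Ratios within a library compared the 3 genes of the region with each other. The ratio of Mirg to Rian counts was 0.0733, 0.0751, 0.0731, 0.0771 and 0.0826 in young replicates 1 to 5 and 0.0886, 0.0898, 0.0968 and 0.0883 in old replicates 1, 3, 4 and 5. The ages did not overlap, and the ratio was 1.19-fold higher in old brain (two-sided exact permutation test, p = 0.016, adjusted p = 0.063). The ratio of Rian to Meg3 was 0.113 ± 0.0058 (SD, n = 5) in young and 0.1005 ± 0.0078 (SD, n = 4) in old brain, 0.89-fold (exact p = 0.048, adjusted p = 0.063). The ratio of Mirg to Meg3 was 1.06-fold (exact p = 0.36). None of the 4 ratios passed after adjustment, where the smallest p that 126 splits allow is 0.0079. Without old replicate 5, Neat1 to Malat1, Rian to Meg3 and Mirg to Rian did (adjusted p = 0.048, 0.036 and 0.036). With any other mouse left out none of them did (exact permutation, adjusted p from 0.071 to 0.12).

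**Figure D4:**
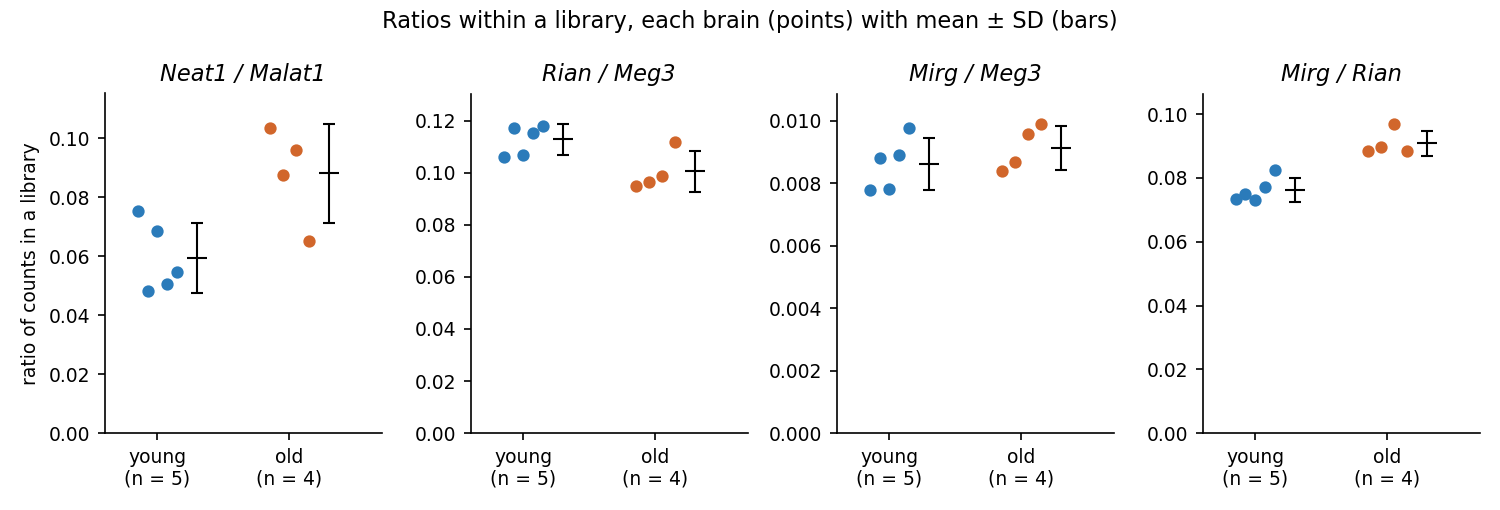
Ratio of the counts of 2 RNAs in the same library for each brain (points; young, n = 5, old, n = 4) with the mean and SD (bars); axes start at 0. The ages are apart for Mirg to Rian (young at most 0.0826, old at least 0.0883) and overlap for the other 3 ratios.

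Whether the 3 RNAs of the region varied together between mice of one age depended on the scale. With the age means removed, Pearson r over 9 mice was 0.63 for Meg3 with Rian, 0.66 for Rian with Mirg and 0.26 for Meg3 with Mirg (exact permutation within age, adjusted p = 0.19, 0.19 and 0.62 over 3 pairs). Spearman rho was 0.55, 0.58 and 0.17 (adjusted p = 0.31, 0.31 and 0.72, exact permutation). Without the 2 mice farthest from the median of the first RNA, r was 0.48, 0.68 and -0.54. On log2(TPM + 1), r was 0.95 for Meg3 with Rian, 0.95 for Rian with Mirg and 0.90 for Meg3 with Mirg (adjusted p = 0.0016, 0.0016 and 0.0035, exact permutation). On this scale the ribosomal RNA-like genes took from 12.1% to 47.8% of a library. Young replicate 3, at 12.1%, had the highest young TPM for every RNA of the group, not only for those of the region. Whether r on this scale is particular to the region, and the part of the ribosomal RNA-like share in it, were not tested. The protein-coding genes of the region, which are transcribed from the paternal chromosome, did not pass by the planned test. The log2 fold change was -0.20 for Dlk1, a transmembrane ligand (adjusted p = 0.58), -0.020 for Rtl1, a gene derived from a retrotransposon (adjusted p = 0.88), and -0.77 for Dio3, the enzyme that inactivates thyroid hormone (edgeR, adjusted p = 0.077) at counts of 13 to 57. Dio3 passed without the filter on low counts (-0.78, adjusted p = 0.020), with the replicate number as a block (-0.82, 0.043), without young replicate 5 (-0.90, 0.039) and by limma on log2(TPM + 1) (-0.57, 0.011), but not by DESeq2 (-0.76, 0.097).

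Among 54 tested genes of an imprinted gene list, 2 rose and 7 fell (16.7%, beside 11.0% of all genes), with a median log2 fold change of -0.050 beside -9.2e-05 for all genes. Ndn, a MAGE family protein of neurons, fell by 0.33 on the log2 scale (adjusted p = 0.00092), Adam23 by 0.20 (0.0046) and Zdbf2 by 0.36 (0.0065). Gnas, which encodes the stimulatory G protein subunit, fell by 0.17 (0.022). Slc22a18, a transporter, rose by 1.46 from 0.577 ± 0.099 to 1.60 ± 0.065 CPM (0.00050) and Plagl1, a zinc finger transcription factor, by 0.24 (edgeR, 0.018). Without young replicate 3 the list held 5 calls.

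Miat did not pass the threshold by the planned test, but did so by others. It was at 507, 415, 449.5, 453 and 417 CPM in young replicates 1 to 5 and at 423, 424, 358 and 343 CPM in old replicates 1, 3, 4 and 5. Old replicates 4 and 5 were below all young brains and the others within their range. The means were 448 ± 37.4 CPM (SD, n = 5) and 387 ± 42.6 CPM (SD, n = 4), and the log2 fold change was -0.21 (95% interval -0.39 to -0.033, edgeR, adjusted p = 0.13). DESeq2's Wald test gave an adjusted p of 0.031 and edgeR without the filter on low counts 0.00028. Of Miat's exon bases, 24.3% are also exon of Gm26953 on the opposite strand, and the counting is not stated to use strand for these libraries, so reads of both could not be told apart there. The same limit holds for 6.79% of the exon bases of Meg3 (Gm26906) and 6.49% of those of Malat1 (Gm37376).

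Neither Snhg11 nor Peg13 passed the test. Snhg11 was at 2275, 1840.4, 2100.1, 2058 and 1967 CPM in young replicates 1 to 5 and at 2365, 2245, 1996 and 2042 CPM in old replicates 1, 3, 4 and 5, with a log2 fold change of 0.078 (95% interval -0.056 to 0.21, adjusted p = 0.47). Peg13 was at 361, 349.9, 363, 363 and 375 CPM and at 369.7, 367, 377 and 379 CPM in the same order. The ages overlapped for both. For Peg13 the log2 fold change was 0.043 (95% interval -0.027 to 0.11, edgeR, adjusted p = 0.45), and its coefficient of variation was 2.42% in young and 1.60% in old brain, the lowest of the 8 genes in young brain. Trappc9, the gene that contains Peg13, was at 77.3 ± 2.55 and 77.5 ± 2.74 CPM (log2 fold change 0.0037, adjusted p = 0.97).

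Levels between the genes were compared per kb of exon. In young brain Malat1 stood at 529.8 ± 78.7 CPM per kb (SD, n = 5), Meg3 at 286 ± 23.0, Snhg11 at 240.4 ± 18.9, Peg13 at 76.7 ± 1.86, Miat at 48.2 ± 4.03, Rian at 31.9 ± 1.61, Neat1 at 10.4 ± 1.08 and Mirg at 6.08 ± 0.50. The order was the same in old brain and by the authors' TPM at both ages. The TPM use nearly the same gene lengths, so their order is no separate check of the lengths. At each age the ranges of Meg3 and Snhg11 over mice overlapped, although Meg3 was above Snhg11 in every single library. No other neighbours overlapped. In old brain Neat1 stood at 18.1 ± 3.00 CPM per kb (SD, n = 4), still between Rian at 28.0 ± 0.86 and Mirg at 6.37 ± 0.098. The length used for Neat1 is that of the long transcript, and its level per length would be higher for the short one. For Rian and Mirg all exons together (18234 and 7292 bases) exceed the longest transcript (8089 and 3822 bases). Their places in the order therefore depend on the length used.

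**Figure D5:**
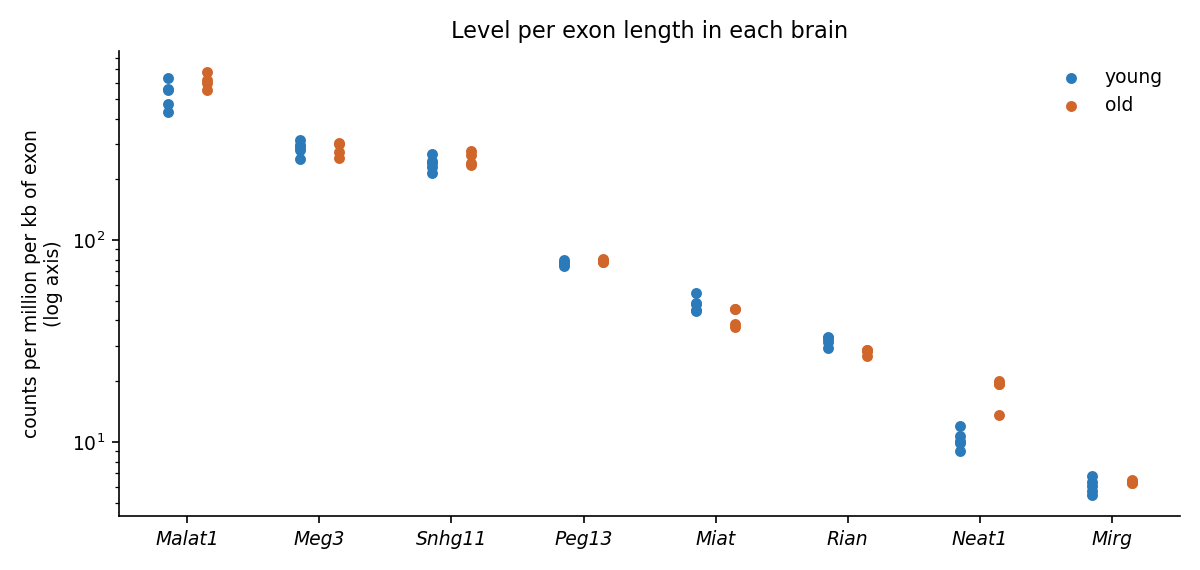
CPM per kb of exon (log axis) of the 8 RNAs in each brain, young in blue and old in orange, ordered by the young mean. The order is the same at both ages, from Malat1 (529.8 young, 614 old) to Mirg (6.08 young, 6.37 old).

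Transcripts of the proteins that gather in paraspeckles and speckles were looked at as lists. Of 29 paraspeckle protein genes, 4 rose and none fell (13.8%, beside 11.0% of all genes), with a median log2 fold change of 0.036. They were Sfpq (0.19, adjusted p = 0.0030), which binds Neat1 in the paraspeckle core, the cold-inducible Rbm3 (0.53, 0.0031), Hnrnpf (0.20, 0.0099) and Rbmx (0.16, 0.042), by edgeR. At an unadjusted p under 0.05, 6 of the 29 were higher and 0 lower, beside 4712 of all 18492 genes in either direction. DESeq2 called 3 higher and 0 lower. For Nono, the partner of Sfpq, which was picked after its value was seen, the log2 fold change was -0.014 (edgeR, adjusted p = 0.85).

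Of 49 speckle and splicing factor genes, 6 rose and none fell (12.2%, beside 11.0% of all genes), with a median of 0.054. The lowest adjusted p belonged to Ptbp1, the repressor of neuronal exons (0.27, adjusted p = 0.0033), the SR protein gene Srsf2 (0.22, 0.0040), the SR protein kinase gene Clk1 (0.22, 0.0044) and Srsf5 (0.24, edgeR, 0.0081). At an unadjusted p under 0.05, 13 of the 49 were higher and 3 lower, beside 4712 of all 18492 genes in either direction. DESeq2 called 5 higher and 0 lower. On the log2(TPM + 1) scale no gene of this or the paraspeckle list passed, and the medians turned to -0.11 and -0.12, above the shift of -0.14 of all genes.

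Among 47 tested genes of a list of other long noncoding RNAs, 5 rose and 2 fell (14.9%), with a median log2 fold change of 0.088. Zfas1 (0.59, adjusted p = 0.00038), Gas5 (0.33, 0.00045) and Snhg8 (0.41, 0.0018), all host genes of small nucleolar RNAs, rose, as did Dnm3os (0.74, 0.0015), a microRNA host. Tunar, an RNA of neural cells, fell by 0.42 (0.0044) and B230217C12Rik by 0.19 (edgeR, 0.0088). Snhg11 thus did not pass while Zfas1, Gas5 and Snhg8 did; the difference between them was not tested.

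For the RNAs other than Neat1, the gene whose log2 CPM followed each most closely over the 9 mice was sought among 14495 genes with a mean log2 CPM of at least 1. The closest were 4930419G24Rik for Malat1 (Pearson r = 0.96), 4932422M17Rik for Meg3 (0.96) and Polh for Rian (0.99). For Mirg it was 5330434G04Rik (0.97), for Miat Gng2 (0.96), for Snhg11 Pxdn (0.95) and for Peg13 Cdc73 (0.97). These are the highest of many values over few mice that share libraries and age groups, and they are given as a description.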

How the data were processed

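RNA-seq libraries of 5 young and 4 old mouse brains were analysed. Per the study's methods, the authors trimmed reads with Trimmomatic, mapped them with STAR to GRCm38 from Ensembl and counted uniquely mapped reads in exons with featureCounts. The labels name mm10 and DESeq2. The deposited counts are raw integers for each gene. The deposited normalized counts, a signal divided by 1 size factor per library by the authors, and the deposited TPM, scaled by the authors with gene lengths that are 0.957 to 1.02 times the annotated exon lengths for the members, as implied by the values, served for alternatives. A further column per table (1), matching no sample used here, was not analysed here.

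Genes were kept with filterByExpr (minimum count 10, total 15) and tested with edgeR's quasi-likelihood test (robust, TMM, Benjamini-Hochberg over 18492 genes). CPM are counts per 1000000 of the scaled library total, and their logs used a prior count of 2, and log2(TPM + 1) and log2 of normalized counts a pseudocount of 1. Ratios and correlations used exact permutation tests. The fit was checked on simulated counts. The tools were edgeR 4.0.16, DESeq2 1.42.0 and limma 3.58.1 under R 4.3.3, and scipy 1.17.1. Symbols and exons came from GENCODE M21 for GRCm38, and 345 IDs had no symbol.

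The members and the lists were chosen with earlier results of these data known, and the ribosomal RNA-like genes (Gm42418, Gm26917, Gm23935, Gm24270, Mir6236) after the values were seen. All 8 members are named, and in each list up to 4 genes per direction with the lowest adjusted p. Neighbours are the nearest 2 protein-coding genes on either side and any that overlap. Some single-gene values are not reported here. Libraries of one age differed by more than sampling noise (chi-square per degree of freedom at least 4.04), which cannot by itself show separate mice. The libraries count as separate mice because the study describes its replicates as biological. Counts of 608 to 108891 per library lie behind the members' values. Counting error was not set apart from the spread between mice, and it weighs most for Mirg, at 608 to 958 counts. Alternatives were 7 other settings, 9 fits leaving out 1 mouse and, added after the data were seen, 6 covariates.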

Additional observations from a re-analysis of the deposited data

Results flagged for a closer look

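In 2 of 24 combinations of an RNA or ratio with an age group, 1 mouse stood apart from the rest of its group by Dixon's criterion, where chance gives about 1 in 20 (1.2 expected). Neat1 in old replicate 5 (282 CPM) lay below the other old brains (401 to 416 CPM), with a gap of 0.906 of the range of the 4 values on the log2 CPM scale. Rian in old replicate 4 (488 CPM) lay below the other old brains (518 to 522 CPM), with a gap of 0.887 of the range on the same scale. Old replicate 5 also had the highest mitochondrial share of the old brains (3.23%), within the young range, the highest summed olfactory bulb markers (277 CPM, the other old brains 119 to 141 and the young 122 to 199) and the lowest choroid plexus markers (440.1 CPM, the other old brains 620 to 748 and the young 537 to 698). The part of these in the value of Neat1 was not tested.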

How the results depend on the processing

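Neat1 and Rian kept their direction in all 22 other fits run. Neat1 passed the threshold with both other scalings, without the filter, by DESeq2, on log2(TPM + 1), on the normalized counts and with the replicate number as a block, and Rian in all of these but log2(TPM + 1). The number of members that passed was 1 on log2(TPM + 1) and 0 with the mitochondrial share or the microglia, neuron or astrocyte markers as a covariate (0 past both thresholds). On log2(TPM + 1), where the ribosomal RNA-like genes took from 12.1% to 47.8% of a library, Mirg (-0.090), Snhg11 (-0.087) and Peg13 (-0.12) turned below 0 but lay above the median of all genes (-0.14). Meg3 turned to 0.022 without young replicate 1 and 0.027 without old replicate 5 (from -0.056 with a mouse left out), and to 0.0092 with the ribosomal RNA-like share as a covariate, Malat1 to -0.059 with the microglia markers and Mirg to -0.024 with the astrocyte markers; the lowest adjusted p of these was 0.70.

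Of all genes, 2031 passed by the planned test and 594 on log2(TPM + 1). On that scale the called genes numbered 3 for imprinted genes and for other long noncoding RNAs, 0 for paraspeckle proteins and for speckle and splicing factors and 1, a fall of Dio3, for neighbours. Imprinted genes had 14 calls without the filter and between 5 and 10 with a mouse left out.

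Replicate numbers did not pair the mice: the deviations of same-numbered mice correlated at 0.17, -0.12, 0.088 and -0.024. With the block, 1828 genes were called against 2031, the log2 fold change was 0.74 for Neat1 (adjusted p = 0.011) and -0.21 for Rian (0.0044), and Miat passed (-0.24, 0.0045), for 3 members.

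With a mouse left out, the ratio of Neat1 to Malat1 differed by 0.48 to 0.71 on the log2 scale, Rian to Meg3 by -0.22 to -0.14 and Mirg to Rian by 0.22 to 0.28. The correlations of Meg3 with Rian, Meg3 with Mirg and Rian with Mirg were 0.95, 0.90 and 0.95 on log2(TPM + 1) (adjusted p = 0.0016, 0.0035 and 0.0016, exact permutation), and Meg3 with Mirg ranged from -0.31 (without young replicate 2) to 0.49. Malat1 with the ribosomal RNA-like share was -0.35 on log2(TPM + 1), and from 0.92 to 0.96 with a mouse left out, where fewer permutations put 7 of 9 adjusted p at 0.05 or above. The cause of these changes was not tested.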
